A study of Mus musculus with 6 samples.

Results

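Genes of sterol uptake, efflux and trafficking were examined in mouse neuro2a cells after knockdown of the transcription factor NF-Y. The 8 members were Lrp8 and Mylip (lipoprotein receptor and its control), Npc1 and Npc2 (export from lysosomes), Abca1 and Abcg1 (efflux), and Stard4 and Apoe (carriage inside and outside the cell). They were chosen by name and function, and each was read through the array probes whose transcript accession maps to it, 11 probes in all. All 8 members were among the 16514 genes tested, and all 11 probes were among the 42208 probes tested. Neuro2a (N2a) is an established mouse neuroblastoma cell line. The Vector group was 3 arrays of cells given a control vector, and the YAYC group was 3 arrays of cells given miR RNAi vectors that knock down Nfya and Nfyc, which encode subunits of NF-Y. Both groups were transfected. The study used an empty vector and a non-targeting hairpin as controls, and the label Vector does not say which of them these arrays held. The labels number the replicates of a group but do not say whether they were separate cultures, so p-values measure the spread between these samples, which may be technical. RNA was taken from whole cultures, so fewer responding cells and a smaller response per cell cannot be told apart.

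Cells take up cholesterol by endocytosis of lipoproteins through receptors of the low-density lipoprotein receptor family, and the cholesterol freed in lysosomes leaves through NPC2, which binds it in the lumen, and NPC1 in the membrane. Soluble carriers of the StAR-related lipid transfer family then move it between membranes, and ABC transporters pass surplus sterol to apolipoproteins outside the cell. SREBP factors switch on synthesis and uptake genes when sterol is low, and the liver X receptors (LXR), activated by oxysterols, switch on efflux genes such as Abca1 and Abcg1 and the receptor-degrading ligase Mylip. NF-Y binds CCAAT motifs and acts beside SREBP on many sterol gene promoters. In the nervous system apolipoprotein E is the main lipoprotein carrier, made largely by glia.

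The 75th percentile of the arrays' signal, to which each array was scaled, lay between 718 and 754 intensity units, and 61.9% to 66.2% of spots were well above background. Nfyc changed by -1.81 and Nfya by -0.76 (log2, YAYC minus Vector), with limma adjusted p of 0.000326 and 0.00130, and all 3 YAYC arrays lay below all Vector arrays for both. Of 14 neuroblastoma and neuron markers, 13 were well above background on all 6 arrays, and Nefl, a neurofilament gene, on none of them. Normalized signals of the 14 were summed on the linear scale, where the brightest genes weigh most. The log2 of this sum was 8.55 to 8.60 in Vector and 8.42 to 8.47 in YAYC. Mycn (-0.69) and Th (-0.62) were called lower. Markers of other cell types were summed in the same way. The sums were close between groups for microglia and macrophages (3.05 to 3.29 in Vector, 3.04 to 3.28 in YAYC, 5 of 6 genes measured). They were lower in YAYC for astrocytes (-2.41 to -2.23 against -2.65 to -2.49, 5 genes) and oligodendrocytes (0.48 to 0.66 against 0.078 to 0.18, 5 genes), and for fibroblasts the ranges were -2.12 to -1.86 and -1.93 to -1.72 (6 genes). Slc1a2 and Gjb6 (astrocyte) and Col3a1 and Lum (fibroblast) were not above background on any array, and the part of these markers in the results was not tested. The arrays lay in 2 rows of 1 slide, row 1 with the 3 Vector arrays and YAYC 1, and row 2 with YAYC 2 and 3. A change within row 1 therefore compares YAYC 1 alone with the Vector arrays, and shows what that array gave rather than whether a change weakens.

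Of the 8 members 2 were called. Stard4, which encodes a soluble sterol carrier, fell to 0.49 of its control level on its brighter probe and to 0.65 on the other. Abcg1, which encodes an efflux transporter, was at least 1.61-fold higher in YAYC. Abca1, the other efflux transporter, was higher on every YAYC array, but its YAYC arrays differed so much that it was not called. The receptor gene Lrp8, the ligase gene Mylip and the lysosomal gene Npc2 had levels about 0.76 to 0.80 of control on the probe read for each. Npc1 and Apoe differed by less. A gene was called at a limma adjusted p below 0.05 together with a fold change above 1.5 in either direction. By this rule 1 member was called lower and 1 higher, against 4.99% of all genes called lower and 3.91% called higher. In either direction this made 2 of 8 members, against 8.90% of all genes. When the fold minimum was dropped, 4 members passed as lower and 1 as higher, where 15.7% of all genes passed in each direction and 31.4% in either. The YAYC and Vector arrays did not overlap for 7 of the 8 members, of which 4 were lower and 3 higher, where 27.0% of all genes were lower and 27.7% higher without overlap, 54.7% in all. The median change of the 8 members was -0.16 and that of all genes tested was 0.0054, and the median size of change without sign was 0.36 for the members and 0.20 for all genes.

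**Figure D1:**
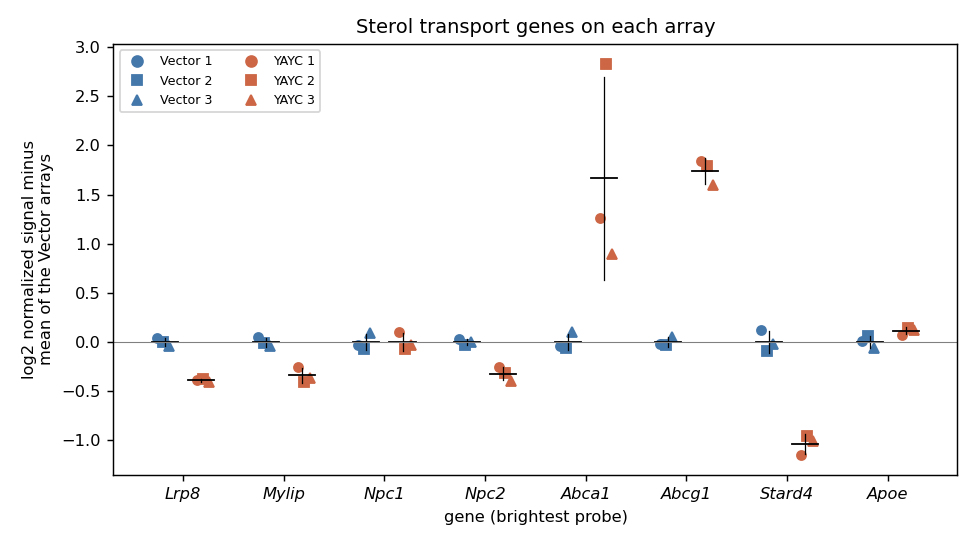
Log2 normalized signal of each member's brightest probe on each of the 6 arrays, minus the mean of the 3 Vector arrays, with group means (horizontal bars) and SD (vertical bars, n = 3). The YAYC points of Stard4 lie about 1 unit below control, the 3 YAYC points of Abca1 are spread over nearly 2 units, and the Abcg1 control points rest on signal that was not well above background.

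Lrp8 encodes apolipoprotein E receptor 2, a lipoprotein receptor that in neurons also receives the signal of reelin. Its brighter probe (A_55_P2014555) had log2 normalized signals of -0.41, -0.45 and -0.50 on the Vector arrays 1 to 3 and of -0.84, -0.83 and -0.86 on the YAYC arrays 1 to 3. All YAYC arrays were lower than all Vector arrays. Mean signals were -0.46 ± 0.041 (SD, n = 3) and -0.84 ± 0.017 (SD, n = 3), and the difference was well above either SD. The change was -0.39 (SE 0.043, 95% confidence interval -0.50 to -0.28, limma adjusted p 0.00400), and it was not called because it stayed under the fold minimum. The other Lrp8 probe (A_52_P279687), to the same transcript accession, was the brighter on the Vector arrays (mean -0.37) and fell further. It changed by -0.57 (SE 0.058, limma adjusted p 0.00305), just under the minimum of 0.58. Within slide row 1 (YAYC 1 alone) the Lrp8 change was -0.38.

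Mylip encodes an E3 ubiquitin ligase, also known as IDOL, that sends receptors of the low-density lipoprotein receptor family, Lrp8 among them, to degradation. Its brighter probe (A_51_P324303) gave -0.36, -0.42 and -0.46 on the Vector arrays and -0.67, -0.82 and -0.78 on the YAYC arrays. The transcripts of the receptor and of the ligase that degrades it were thus both lower on all 3 YAYC arrays. The arrays did not measure either protein. Mean Mylip signals were -0.41 ± 0.046 (SD, n = 3) and -0.75 ± 0.078 (SD, n = 3). The change was -0.34 (SE 0.059, limma adjusted p 0.0149), also under the fold minimum. The dimmer Mylip probe (A_52_P248343) changed by -0.51 (SE 0.15, limma adjusted p 0.0723). Within slide row 1 (YAYC 1 alone) the Mylip change was -0.25.

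NF-Y binds CCAAT, so the promoter windows of the members were searched for these letters on both strands. Windows of RefSeq transcript starts in assembly GRCm38.p6, from 250 bases before to 50 bases after the start, were held for 5 of the 8 members (Lrp8, Mylip, Npc2, Abca1 and Apoe, 9 windows). Npc1 and the called members Stard4 and Abcg1 had no window. Mylip and Npc2 were the members with the motif, with 3 and 2 matches. Among 32851 windows held by RefSeq, 37.4% held at least 1 match, 11.7% at least 2 and 3.37% at least 3. Counted by gene, 41.1% had at least 1 match in any window. The letters TCACNCCAC, a core of sterol response elements, and the direct repeat motif read by LXR (DR4) were in 1.24% and 0.0152% of all windows and in no member window. For DR4 only the exact repeat was searched, and 5 of the 32851 windows held it. Repeats with changed letters were not tested, so this search does not show that a member window, that of Abca1 included, lacks an LXR element. A match of letters is a description and not a measured binding site. The 250 bases before the start are shown for Mylip and Npc2, for their matches, and for Abca1, a member without a match whose signal was higher, 5′ to 3′ on the gene's strand with CCAAT or its reverse complement ATTGG in capitals. Mylip is at chr13:45389492-45389741 (plus strand), Npc2 at chr12:84773113-84773362 (minus strand) and Abca1 at chr4:53159896-53160145 (minus strand), all in GRCm38.p6.
Mylip: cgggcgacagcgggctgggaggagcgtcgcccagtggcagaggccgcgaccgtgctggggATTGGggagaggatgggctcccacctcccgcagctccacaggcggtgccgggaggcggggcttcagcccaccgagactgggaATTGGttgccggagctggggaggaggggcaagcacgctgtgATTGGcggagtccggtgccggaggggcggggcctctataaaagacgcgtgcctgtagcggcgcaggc
Npc2: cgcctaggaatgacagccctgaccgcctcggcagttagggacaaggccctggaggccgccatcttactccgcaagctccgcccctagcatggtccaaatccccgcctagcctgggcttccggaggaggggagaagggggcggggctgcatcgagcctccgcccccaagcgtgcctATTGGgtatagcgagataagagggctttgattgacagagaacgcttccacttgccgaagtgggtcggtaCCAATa
Abca1: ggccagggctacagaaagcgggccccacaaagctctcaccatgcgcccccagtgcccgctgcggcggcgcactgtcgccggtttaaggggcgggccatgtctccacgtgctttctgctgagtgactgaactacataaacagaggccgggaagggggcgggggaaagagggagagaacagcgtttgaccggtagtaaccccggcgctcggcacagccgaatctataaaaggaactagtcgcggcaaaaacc

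The 3 Mylip matches all read ATTGG and began 190, 108 and 67 bases before the transcript start. In Npc2 an ATTGG began 75 bases and a CCAAT 6 bases before the start. The members with CCAAT in the window had changes of -0.34 and -0.32, and those without it -0.39 (Lrp8), 0.12 (Apoe) and 1.66 (Abca1). These are too few genes to compare.

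Of the lysosomal genes, Npc2 encodes the soluble protein that takes cholesterol in the lysosomal lumen, and its signals were 4.14, 4.08 and 4.11 on the Vector arrays and 3.85, 3.79 and 3.72 on the YAYC arrays. All YAYC arrays were lower. Mean signals were 4.11 ± 0.032 (SD, n = 3) and 3.79 ± 0.069 (SD, n = 3). The Npc2 change was -0.32 (SE 0.053, 95% confidence interval -0.46 to -0.19, limma adjusted p 0.0131), and it was under the fold minimum. Within slide row 1 (YAYC 1 alone) it was -0.25. Npc1 encodes the membrane protein that receives cholesterol from NPC2. Its signals were -0.34, -0.39 and -0.22 on the Vector arrays and -0.21, -0.38 and -0.34 on the YAYC arrays, and the groups overlapped. The Npc1 difference was 0.0027 with an SE of 0.073, smaller than the SD of either group (0.086 and 0.089). Its 95% confidence interval of -0.18 to 0.19 leaves room for a change of up to 1.14-fold.

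Abca1 encodes the transporter that loads cholesterol and phospholipid onto apolipoprotein acceptors. Its probe (A_52_P665675) was dim but well above background on all 6 arrays, with intensities of 30.4, 29.4 and 33.4 on the Vector arrays and 74.5, 212 and 56.2 on the YAYC arrays. In log2 normalized signal these were -4.63, -4.65 and -4.49 against -3.33, -1.76 and -3.70. Every YAYC array was above every Vector array, and YAYC 2 stood far above the other YAYC arrays. Mean signals were -4.59 ± 0.085 (SD, n = 3) and -2.93 ± 1.03 (SD, n = 3). The change was 1.66 (SE 0.52, 95% confidence interval 0.33 to 2.99, limma adjusted p 0.0823), so Abca1 was not called. Without YAYC 2 the change was 1.08 (limma adjusted p 0.0189), and it was called. YAYC 2 also had the lowest share of spots well above background (61.9%), and the part of this array's quality in the Abca1 value was not tested. Within slide row 1 (YAYC 1 alone) the change was 1.27.

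Abcg1 encodes a transporter that passes sterol on to lipidated high-density lipoprotein. Its probe (A_51_P222467) had intensities of 4.78, 4.66 and 5.03 on the Vector arrays, none well above background, and of 17.3, 16.0 and 14.2 on the YAYC arrays, all well above background. The groups did not overlap, and the lowest signal well above background on the Vector arrays lay between 9.43 and 10.7. On the YAYC arrays 1 to 3 this lowest signal was 10.2, 13.5 and 11.9, so the readings of YAYC 2 and 3 were near it too. Set against the Vector limit, Abcg1 was at least 1.61-fold higher in YAYC, with the YAYC readings taken as measured. For this bound the Vector level on an array was taken as the lowest signal of any probe well above background there, or as the Abcg1 signal where that was higher, and the 3 levels were averaged on the log2 scale. It was between 1.56-fold and 1.70-fold when each array was left out in turn. Measured means were -7.28 ± 0.046 (SD, n = 3) and -5.54 ± 0.13 (SD, n = 3) on the log2 scale. The limma adjusted p of 0.000483 came from the fit of these measured signals, Vector readings included, and the bound itself was not tested. With an intensity trend the SE of that fit was 0.31 rather than 0.080, and the limma adjusted p was 0.00184. The call was lost in 1 alternative, which took median signals, corrected their background by normexp and added an offset of 50 intensity units to every spot. Under these changes together the Abcg1 change was 0.30 (limma adjusted p 0.00215), under the fold minimum.

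Stard4 encodes a small cytosolic protein that carries cholesterol between membranes. Its brighter probe (A_52_P384574) gave 2.53, 2.32 and 2.39 on the Vector arrays and 1.26, 1.46 and 1.40 on the YAYC arrays. The highest YAYC array was well below the lowest Vector array. Mean signals were 2.41 ± 0.11 (SD, n = 3) and 1.37 ± 0.10 (SD, n = 3), and the difference was well above either SD. Stard4 changed by -1.04 (SE 0.084, 95% confidence interval -1.25 to -0.83, limma adjusted p 0.00168). The other Stard4 probe (A_52_P561205) was called too, at -0.62 with an SE of 0.058, so the probes shared a direction and differed in size. The Stard4 change within slide row 1 (YAYC 1 alone) was -1.15, and leaving out each array in turn gave -1.09 to -0.98, called each time. No other member was called under every alternative setting tried.

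Apoe encodes apolipoprotein E, the lipoprotein component that binds Lrp8 and its relatives. Its probe (A_51_P171999) was printed in 10 spots, of which 9 or 10 were usable on each array. The spread of spots within an array was 0.028 to 0.060 (SD, log2). Array means were 0.90, 0.95 and 0.83 for Vector and 0.97, 1.04 and 1.02 for YAYC. The YAYC arrays were higher without overlap, but by a narrow margin. Apoe differed by 0.12 (SE 0.052, 95% confidence interval -0.016 to 0.25, limma adjusted p 0.180), and was not called. Given this interval, a rise of more than 1.19-fold lay outside the 95% limits.

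**Figure D2:**
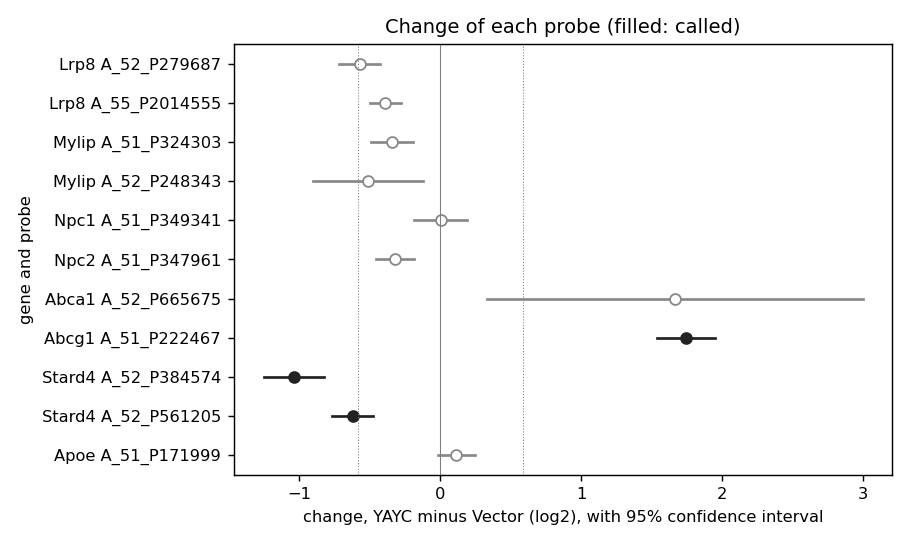
Change of each of the 11 member probes (log2, YAYC minus Vector) with its 95% confidence interval from the limma fit. Filled points were called, dotted lines mark the 1.5-fold minimum, and the Abcg1 point is a fitted value against control signal not well above background. Both Stard4 probes were called lower, and both probes of Lrp8 and of Mylip lay below 0 without a call.

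The members were placed among the changes of all 16514 genes. Only 2.01% of genes had a lower change than Stard4. The changes of Lrp8, Mylip and Npc2 were in the lower tail but not at its end, with 12.5%, 14.9% and 15.9% of genes below them. Npc1 was near the middle, with 49.6% of genes below it, and Apoe had 65.2% of genes below it. Abca1 had 99.5% of genes below it, and the fitted value of Abcg1, which is no measure of size, 99.6%.

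**Figure D3:**
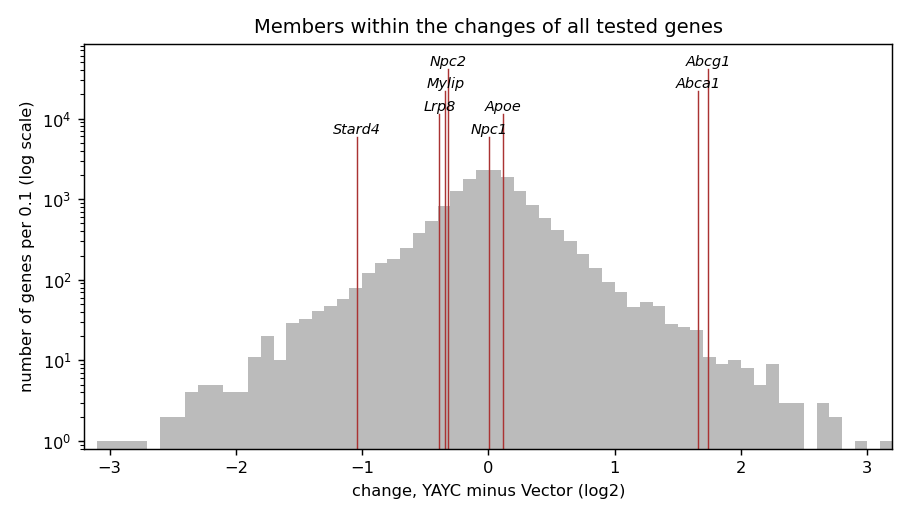
Distribution of the change (log2, YAYC minus Vector) over 16514 genes on a log axis of gene number, with a line at each member. Stard4 lies in the lower tail, Abca1 and Abcg1 in the upper tail, and Npc1 and Apoe near the centre. The axis ends at 3.2 in either direction.

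For the called members, the genes with the most similar signal over the 6 arrays were looked up among genes well above background on every array. The nearest to Abcg1 were Utp3 (Pearson r = 0.9997) and Cpne1 (r = 0.9997), and the nearest to Stard4 were Npdc1 (r = 0.9991) and Zfand2a (r = 0.9988). With 6 arrays in 2 groups, any gene that differs cleanly between the groups comes close to these values. The values for Abcg1 also rest on Vector readings that were not well above background. The changes of these genes were 0.36 for Utp3, 0.67 for Cpne1, -0.27 for Npdc1 and -0.35 for Zfand2a.

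A wider list of 64 sterol transport genes set the members in their pathway, and 54 of them were tested. Of these 4 were called lower (7.41%) and 2 higher (3.70%), near the 4.99% and 3.91% of all genes, and their median change was -0.0051. Carriers inside the cell held 2 of the lower calls among 20 tested. Osbp, which encodes the oxysterol-binding protein that exchanges cholesterol for a phosphoinositide at contacts of the ER with the Golgi, changed by -0.78 (SE 0.052, limma adjusted p 0.00106). Its other probe changed by -0.27 (limma adjusted p 0.0764) and was not called, and the mean of both probes was not called either, at -0.52. Osbpl5, of the same family, changed by -0.71 (SE 0.047, limma adjusted p 0.00108). Like Stard4, these encode carriers between membranes, but the remaining 18 of the 20 were not called, and the group's median was -0.066. When the fold minimum was dropped, 8 of the 20 passed at a limma adjusted p below 0.05 as lower and 3 as higher. Of all genes, 15.7% passed in each direction.

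Among the uptake genes, Scarb1, which encodes the high-density lipoprotein receptor SR-BI, changed by -0.60 (SE 0.042, limma adjusted p 0.00123), and its other probe by -0.70. It was close to the fold minimum and was not called without Vector 2, at -0.58, or under quantile normalization, at -0.56. Of the 10 uptake genes tested, 8 were not called. Among 5 further efflux transporters, Abcg4, the close relative of Abcg1 found mainly in neurons, rose by 0.76 (SE 0.052, limma adjusted p 0.00116), and its other probe by 0.89. The remaining efflux genes had changes of -0.073 to 0.084. Abcg4 was well above background on all 6 arrays, unlike Abcg1.

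Soat1, which encodes the enzyme that esterifies cholesterol for storage, changed by -0.60 (SE 0.10, limma adjusted p 0.0150). The Soat1 call was lost without Vector 2 (-0.61), without Vector 3 (-0.56), without YAYC 2 (-0.50), within slide row 1 (-0.50, YAYC 1 alone) and with normexp (-0.32). With the replicate block it was lost at a limma adjusted p of 0.0521. Lysosomal release genes (4 tested), extracellular carriers (7 tested) and the LXR genes with their RXR partners (5 tested) had 0 calls by limma. At an unadjusted p below 0.05 there were 3, 1 and 1 genes. At a limma adjusted p below 0.05 without the fold minimum, 2 lysosomal release genes passed as lower and 1 as higher. By that measure 1 extracellular carrier passed as higher, where 15.7% of all genes passed in each direction. The medians of the lysosomal, extracellular and LXR groups were -0.15, 0.14 and -0.015. The LXR genes themselves, Nr1h2 and Nr1h3, differed by 0.031 and 0.014, with limma adjusted p of 0.731 and 0.908.

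**Figure D4:**
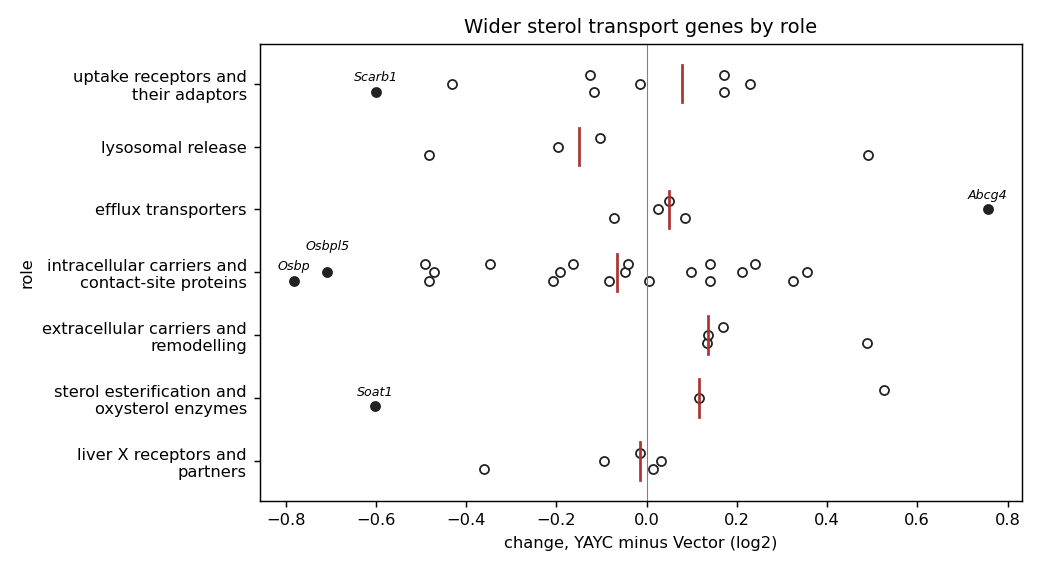
Change (log2, YAYC minus Vector) of 49 wider sterol transport genes with a probe well above background on all arrays of at least 1 group, by role. Filled points were called and are named, and red bars are the medians of all tested genes of the role. Calls are scattered over 4 of the 7 roles and in both directions.

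The changes were recomputed under 21 alternative settings, of which 6 leave out an array. Stard4 ranged from -1.15 to -0.83 and was called in all 21. Lrp8 ranged from -0.50 to -0.31, Mylip from -0.46 to -0.25 and Npc2 from -0.44 to -0.25, each below 0 in all 21. Abca1 ranged from 0.83 to 2.05 and was called in 3 of 21. Abcg1 was called in 20 of 21. Npc1 was below 0 in 5 of 21 and Apoe in 1 of 21, and neither was called in any, with limma adjusted p of 0.535 to 0.992 and 0.0890 to 0.994.

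**Figure D5:**
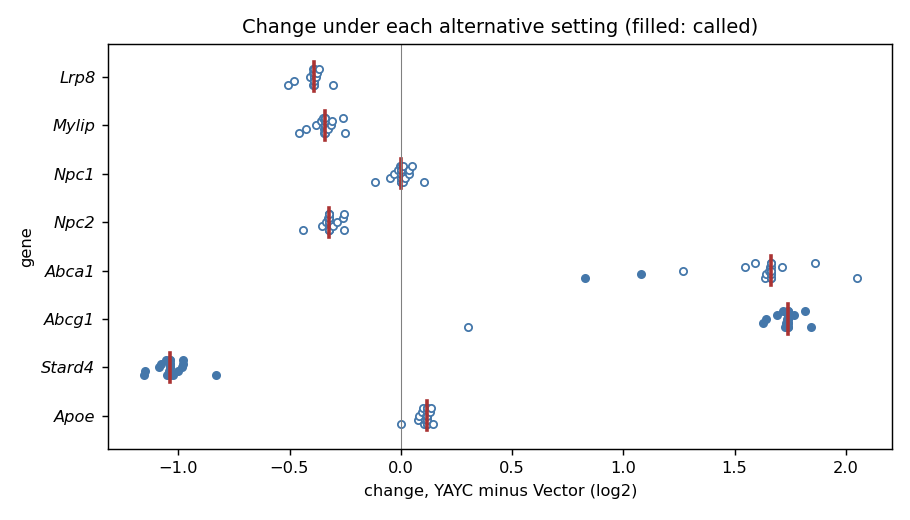
Change of each member (log2, YAYC minus Vector) under each of 21 alternative settings (points, filled where called) and as reported (red bar). Stard4 stays at or below -0.83, Abca1 is spread between 0.83 and 2.05 (its called point at 1.66 lies under the red bar), and the single open Abcg1 point at 0.30 is normexp correction of median signals with an offset.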

How the data were processed

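Total RNA of transfected N2a cells was labelled with Cy3 and hybridised to Agilent SurePrint G3 Mouse GE 8x60K arrays, 1 array a sample. The deposited scanner tables were made by the authors with Agilent Feature Extraction 10.10.1.1 and hold, for each spot, an intensity on a linear scale from which background was already taken, with quality flags. The deposited series matrix holds log2 values of unstated scale. Differences between its columns matched those of the scaling used here to within 0.0075 over 43557 probes, after each probe was centred on its mean, so both tables were taken to share 1 scaling up to a constant for each probe.

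Control spots and outlier spots were left out. Processed signals were put on the log2 scale, reduced by each array's 75th percentile and averaged over the spots of a probe. Probes reaching the 20th percentile on all 3 arrays of a group were tested (42208 of 55681; 245 lacked a value). Symbols came from RefSeq GRCm38.p6 by accession; the array annotation uses another build, mm9. A gene was read from its brightest probe. YAYC was set against Vector in a limma fit (version 3.58.1, R 4.3.3) that had group as its only term. The same fit was also tried on simulated data whose means and SDs came from these arrays. Tests were two-sided, and p-values were adjusted by Benjamini-Hochberg across every probe tested. Dim probes limit precision, and the number of arrays (3 a group) limits it throughout.

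The genes named were the 8 members, Nfya, Nfyc, up to 3 called genes of each role of the wider list, LXR genes, and the 2 nearest genes by correlation for each called member. Nr1h2, Nr1h3 and the markers and probes given beside results were named after their values were seen. A gene of the wider list is counted but not reported here. The members, lists and settings were chosen with earlier results of these data known. The scanner tables used have no mean signal column, so normexp took median signals. Alternatives were other scalings, background correction, filters, thresholds, variance models, blocks, the series matrix, averaging the probes of a gene, and omitting arrays 1 at a time.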

Additional observations from a re-analysis of the deposited data

How the results depend on the processing

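Of 168 recomputed member changes (8 members, 21 settings), 155 kept direction and call. Median scaling moved all changes by -0.12, to -0.11 for Npc1 and -0.00088 for Apoe (0.0027 and 0.12 relative to that shift). It gave 8 wider-list genes lower and 382 of all genes higher, with 75.4% of calls lower against 56.1%. Normexp on median signals with an offset, changed together, gave 0.83 for Abca1 (called), 0.30 for Abcg1 (not called) and 275 genes higher, with 68.0% of calls lower. With series matrix values Npc1 was -0.0014. With an intensity trend Abca1 was called at 1.66, so 2 members were called higher. Without a fold minimum Lrp8 (-0.39), Mylip (-0.34) and Npc2 (-0.32) were called, which made 4 members, 13 wider-list genes and 2591 of all genes lower, and 7 and 2595 higher. At a 2-fold minimum Nfya (-0.76) was not called, 286 genes were lower and 182 higher, and limma called 0 wider-list genes lower and 0 higher, with 1 at an unadjusted p below 0.05. Leaving out each array gave Npc1 changes of -0.048 to 0.051 and Abca1 changes of 1.08 to 2.05, 1 to 2 members called higher and 2 to 4 wider-list genes called lower (2 without Vector replicate 2). Apart from these effects of construction, the cause was not tested.

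Arrays given the same number in the sample titles had correlations of 0.0023 to 0.066 between their deviations from the group means, and 3 of 6 arrays correlated best with their own number, so the numbers were not read as pairs. The deposited scanner tables number the arrays differently from the titles, and pairs by those numbers were not tested. With the replicate block 764 genes were called lower and 518 higher, no member's call changed, and Soat1 of the wider list was not called (limma adjusted p 0.0521). With that block the limma adjusted p of Npc2 was 0.0509.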
